A study of Mus musculus with 4 samples.

Results

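The genes of the epidermal growth factor (EGF) receptor family were followed in cultured mouse keratinocytes (KCs), which form the epidermis. The group held 10 genes chosen by name: the receptors Egfr, Erbb2 and Erbb3, the ligands Epgn, Ereg, Areg, Btc, Hbegf and Tgfa, and the feedback inhibitor Errfi1. Among the 25814 genes listed, 9 were found under these names. Areg is listed as Mcub_2 and was found through its identifier (ENSMUSG00000029378) and its position on chromosome 5, so that 10 of 10 genes had values. All 10 passed the filter on low counts, and together they are 10 of the 12614 genes tested.

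Polyadenylated RNA was sequenced from 4 libraries of untreated tail KCs of adult 129/sv mice, grown in serum-free medium with 0.06 mM calcium. In each genotype 2 libraries were made, from wild-type (WT) littermates and from Nfat5-deficient mice, with the genotype Nfat5-/-, here called knockout-labelled libraries. NFAT5 is a transcription factor known for its part in the response to osmotic stress, and these mice lacked it in the whole animal rather than in the KCs alone. The study's methods note kidney atrophy and permanent hypernatremia for the mice, and an overnight shipment of the tails on ice. The sources used here give no time in culture, batch or date for the libraries, and do not say whether the medium held added EGF. The series describes the libraries as independent experiments, and the study speaks of sibling mice of both genotypes without tying each library to an animal, so the p-values measure the spread between these libraries.

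The libraries held from 16219445 to 23494436 reads in genes. The replicates of each genotype differed by more than sampling noise and were kept as separate samples. Reads of Nfat5 did not separate the labelled genotypes, with 408 and 929 in WT against 715 and 770 in the knockout-labelled libraries (log2 fold change 0.09, SE 0.26, edgeR adjusted p = 0.913). Gene totals can hold reads from exons outside the deleted part, so these reads do not check the label. The libraries held abundant basal KC RNA, with Krt14 between 5148 and 6985 RPKM (a read level corrected for exon length and library size) and 0 of 7 basal markers past the threshold (1 lower at an unadjusted p under 0.05). Markers of other cells moved with the labelled genotype. Of 5 smooth muscle markers, 4 were tested and all 4 rose: Acta2 (log2 fold change 2.00), Tagln (2.11), Cnn1 (2.17) and Myh11 (4.71), with adjusted p-values between 0.008 and 0.044. Their summed level was 184 and 151 RPKM in WT against 518 and 819 RPKM in the knockout-labelled libraries, while the muscle filament gene Des had at most 1 read per library. Of 6 melanocyte markers, 5 were tested and Tyrp1 fell (-2.04, adjusted p = 0.020), and the summed level of the list was 7.54 and 7.20 RPKM in WT against 2.30 and 3.20 RPKM. Fibroblast, endothelial and immune markers gave 0 calls in 2 tested genes each, and their most abundant genes were Col1a1 at 0.259 to 0.804 RPKM, Kdr at 0.449 to 0.650 RPKM and Cd68 at 13.2 to 20.6 RPKM. Of 6 suprabasal markers, 0 passed the threshold (2 higher at an unadjusted p under 0.05), and their summed level was 62.1 and 29.4 RPKM in WT against 50.6 and 80.6 RPKM in the knockout-labelled libraries, most of it from Sbsn. In bulk RNA, more cells of a type and more RNA per cell cannot be told apart, and the part of these markers in the results below was not tested.

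EGF receptor signalling is a main driver of KC growth, migration and survival. Ligands are made as membrane-anchored precursors, and cell-surface proteases called sheddases cut them free. A bound ligand brings receptor molecules together in pairs, which switches on their tyrosine kinases and, through adaptors, the RAS and MAP kinase cascade. Early response genes are transcribed next, and some of the genes induced by the pathway encode its own ligands and inhibitors.

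The ligands share a compact module, held together by paired cysteines, that binds the receptor. The coding sequence of this module is shown for 5 ligands because it is the feature that makes them a family. Each stretch was read 5′ to 3′ on the coding strand from GENCODE M21 transcripts (GRCm38), is 108 bases long and is coded by parts of 2 exons with 1 intron between them. Capitals mark the 6 cysteine codons. The genomic spans, intron included, are chr5:91031152-91032237 on the plus strand for Epgn, chr5:91088496-91089111 (plus) for Ereg, chr5:91143614-91144364 (plus) for Areg, chr5:91362421-91366197 (minus) for Btc and chr6:86263200-86269960 (plus) for Tgfa.
Epgn: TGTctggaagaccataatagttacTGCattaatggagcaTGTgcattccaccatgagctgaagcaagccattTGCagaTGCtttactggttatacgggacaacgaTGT
Ereg: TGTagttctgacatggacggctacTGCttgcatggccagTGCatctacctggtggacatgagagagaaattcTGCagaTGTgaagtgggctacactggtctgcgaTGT
Areg: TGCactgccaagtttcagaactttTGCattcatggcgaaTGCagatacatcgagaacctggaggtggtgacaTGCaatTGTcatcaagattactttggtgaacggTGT
Btc: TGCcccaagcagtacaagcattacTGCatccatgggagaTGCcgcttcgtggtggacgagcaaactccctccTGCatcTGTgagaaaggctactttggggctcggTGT
Tgfa: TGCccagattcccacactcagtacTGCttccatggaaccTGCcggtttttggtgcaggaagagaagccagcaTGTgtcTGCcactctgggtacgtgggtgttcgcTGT

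The spacing of the cysteine codons was the same in these 5 ligands, with 7, 4, 10, 1 and 8 codons between neighbours. Outside the cysteines the letters diverged. Identity over the 108 bases ranged from 45.4% between Ereg and Tgfa to 62.0% between Btc and Tgfa over the 10 pairs, and 29 positions were the same in all 5. In the deposited counts, at least 98.6% of the exon reads of every gene of the group were placed at a single site.

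Between the genotypes, ligand RNA was higher in the knockout-labelled libraries, in the ligand genes of chromosome 5, while the mean levels of the receptors, Hbegf and Tgfa were between 0.908 and 1.16 times those of WT. Epgn and Ereg had mean levels 2.10 and 2.12 times those of WT, and Areg and Btc 1.4 times. No gene of the group passed the threshold of an adjusted p of 0.05 in edgeR over all genes tested, where 1.27% of genes were called. At an unadjusted p under 0.05, 4 of the 10 genes had higher levels in the knockout-labelled libraries (Ereg, Epgn, Areg and Errfi1), against 8.17% of all genes tested, and 0 were lower, against 6.47%. DESeq2 called 1 gene of the group (Ereg), and 427 of 12614 genes in all. With limma on log2(RPKM + 1) or log2(RPKM + 0.1), 0 genes of the group were called, and 161 and 141 of 10261 genes in all.

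The RPKM values of the 2 genotypes did not overlap in 6 of the 10 genes. In 5 of them (Epgn, Ereg, Areg, Btc and Errfi1) the knockout-labelled libraries were higher, a pattern found in 21.6% of all genes tested, and in 1 (Erbb2) they were lower, as in 25% of all genes. The median log2 fold change was 0.30 over the 10 genes and -0.01 over all genes tested. On a list made without a test, of at least 2-fold change in mean RPKM with no overlap and at least 2 RPKM in the higher group, 2 of the 10 genes stood (Epgn and Ereg), while 1.23% of all genes were on its higher side and 0.444%, but 0 of the 10 genes, on its lower side. With 2 libraries against 2, an exact permutation test of a single gene cannot give a two-sided p below 0.333, so the tests below are those of edgeR across all genes.

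**Figure D1:**
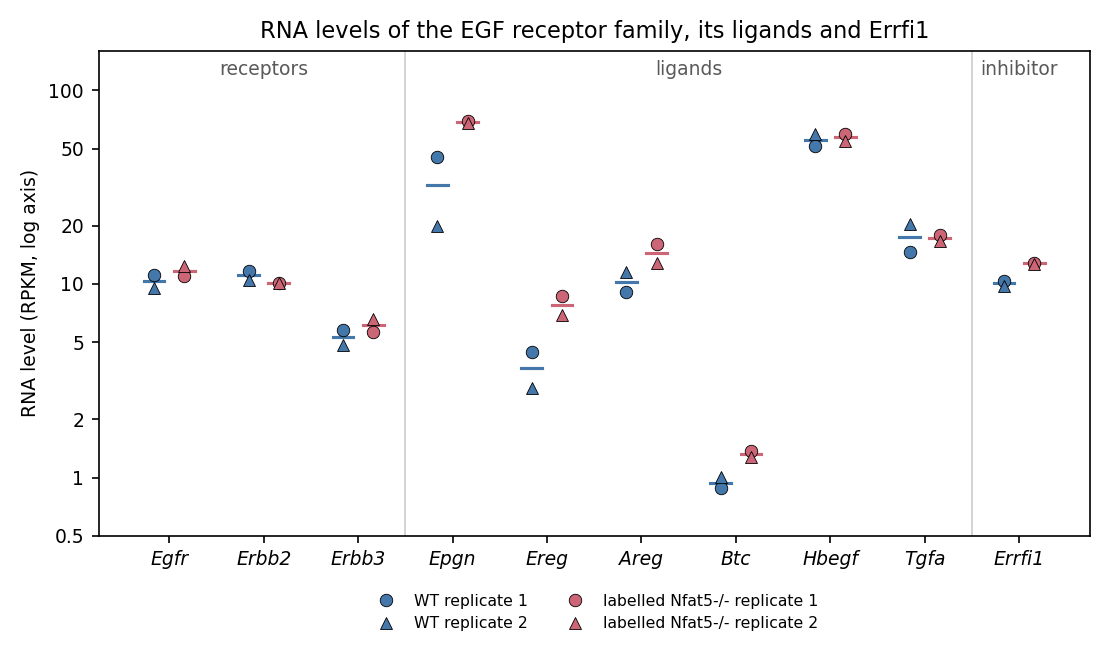
RNA level of each gene of the group in each library (RPKM, log axis), with WT in blue and knockout-labelled libraries in red, circles for replicate 1, triangles for replicate 2 and a bar for the mean of each group. Epgn and Ereg stand about 2-fold higher in the knockout-labelled libraries, Epgn with WT values as far apart as 45.2 and 19.9 RPKM, while Egfr, Erbb3, Hbegf and Tgfa overlap between the genotypes.

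Of the receptors, Egfr binds EGF, amphiregulin and the other ligands followed here and is the main receptor of this family in KCs. Its gene (ENSMUSG00000020122) lies on chromosome 11 at 16752203 to 16918158 (GRCm38, plus strand) and is listed with 32 exons. The Egfr level was 11.2 and 9.56 RPKM in WT against 11.0 and 12.3 RPKM in the knockout-labelled libraries. The groups overlapped, since replicate 1 of WT lay above replicate 1 of the knockout-labelled libraries. Its log2 fold change was 0.18 (SE 0.12, adjusted p = 0.530), and the 95% interval of the fold change ran from 0.938 to 1.38.

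Erbb2, a receptor with no known soluble ligand that acts as a partner of the others, lies on the same chromosome at 98412470 to 98437716 (ENSMUSG00000062312, plus strand, 27 exons). It was the only gene of the 10 with both knockout-labelled libraries below both WT libraries, at 10.1 and 10.1 RPKM against 11.7 and 10.5 RPKM. The step was small, with a log2 fold change of -0.12 (SE 0.11, adjusted p = 0.669) and an interval of the fold change from 0.769 to 1.10.

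Erbb3, which binds neuregulins and has a weak kinase of its own, lies on chromosome 10 at 128567523 to 128589652 (ENSMUSG00000018166, minus strand, 28 exons). Its level was 5.81 and 4.83 RPKM in WT against 5.67 and 6.62 RPKM in the knockout-labelled libraries, and the groups overlapped. Its log2 fold change was 0.23 (SE 0.14, adjusted p = 0.520), with an interval of the fold change from 0.928 to 1.48. A change of 1.5-fold or more in any of the 3 receptors thus lay outside its interval in the main fit, for Erbb3 only just. With 1 library left out, the log2 fold change ran from 0.10 to 0.38 for Erbb3, 0.09 to 0.29 for Egfr and -0.20 to -0.03 for Erbb2.

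The ligand genes Epgn, Ereg, Areg and Btc lie side by side within 376 kb of chromosome 5, from 91027464 to 91402994, and are the only 4 genes listed inside that stretch. In all 4 the knockout-labelled libraries were higher than both WT libraries, a pattern found in 21.6% of all genes tested, and 0 of the 4 passed the threshold. The summed RNA level of the 4 genes was 59.6 and 35.3 RPKM in WT against 95 and 89.0 RPKM in the knockout-labelled libraries, or 47.5 ± 17.2 and 92.0 ± 4.21 RPKM (SD, n = 2), a ratio of 1.94.

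Epgn (ENSMUSG00000035020, 91027464 to 91035215, plus strand, 7 exons) encodes epigen, a ligand of Egfr with low affinity. Its level was 45.2 and 19.9 RPKM in WT against 69.0 and 68.1 RPKM in the knockout-labelled libraries. The groups did not overlap, but the WT libraries differed 2.27-fold from each other while the knockout-labelled libraries differed 1.01-fold. Among 4867 tested genes whose WT mean reached 10 RPKM, 0.411% had a spread between the WT libraries at least as wide. The log2 fold change was 1.09 (SE 0.32, unadjusted p = 0.011, adjusted p = 0.185), with an interval of the fold change from 1.26 to 3.59. Among the suprabasal markers, Sbsn was at 56.5 and 24.5 RPKM in WT against 43.3 and 70.1 RPKM in the knockout-labelled libraries. Ivl was at 1.75 and 1.27 against 2.10 and 1.99 RPKM. Krt1 and Krt10 also had their higher WT value in replicate 1, but Krt10 was lower in the knockout-labelled libraries (log2 fold change -0.49). In WT, Lor (2.54 and 2.59 RPKM) and Flg (0.201 and 0.277 RPKM) were higher in replicate 2 instead. The part of these markers in the Epgn values was not tested.

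The size of the Epgn difference depended on the WT library. Without WT replicate 1 its log2 fold change was 1.80, and without WT replicate 2 it was 0.61. Leaving out the first or the second knockout-labelled library gave 1.10 and 1.08. With 1 WT library left, the fit holds no measure of the 2.27-fold spread between the WT libraries. The p-values of the fits with 1 library left out are therefore not given.

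Ereg (ENSMUSG00000029377, 91074622 to 91093646, plus strand, 5 exons) encodes epiregulin, which binds Egfr and the related receptor Erbb4. Its level was 4.43 and 2.91 RPKM in WT against 8.64 and 6.90 RPKM in the knockout-labelled libraries, from 305, 267, 865 and 547 gene reads. Both knockout-labelled libraries lay above both WT libraries, and the lowest of them was 1.5-fold or more above the highest WT value. With a log2 fold change of 1.11 (SE 0.21, unadjusted p = 0.001, adjusted p = 0.063), Ereg came nearest to the threshold among the 10 genes and stood at rank 209 of all genes tested. The interval of its fold change ran from 1.53 to 3.06.

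The call of Ereg depended on the fit. It passed the threshold with DESeq2 (adjusted p = 5.0e-04), uniquely placed exon reads (0.044) and scaling by library totals (0.049). Ereg also passed with the replicate block (0.030) and with no filter on low counts (9.9e-11). DESeq2 called 427 genes in all and the fit with no filter 1137, against 160 in the main fit. The block pairs libraries that share only a number. Ereg did not pass with RLE scaling factors (0.057), at least 10 reads in every library (0.052), exon reads (0.053) or limma (0.064 and 0.072). Over the 14 alternative analyses its log2 fold change lay between 0.83 and 1.45, the range also seen with 1 library left out.

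Areg (91139599 to 91148432, plus strand, 6 exons) encodes amphiregulin, a ligand that KCs make and respond to in culture. Its level was 9.06 and 11.5 RPKM in WT against 16 and 12.8 RPKM in the knockout-labelled libraries. The groups stood apart, with only a narrow step between the higher WT library and the lower knockout-labelled library. The log2 fold change was 0.52 (SE 0.18, unadjusted p = 0.021, adjusted p = 0.251), with an interval of the fold change from 1.07 to 1.92.

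Btc (ENSMUSG00000082361, 91357261 to 91402994, minus strand, 8 exons) encodes betacellulin and was the least abundant gene of the group. Its level was 0.878 and 1.005 RPKM in WT against 1.37 and 1.27 RPKM in the knockout-labelled libraries, from 43, 65, 96 and 70 gene reads. The groups did not overlap, but the log2 fold change of 0.49 (SE 0.24, adjusted p = 0.408) had an interval of the fold change that included no change (0.948 to 2.07).

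The genes around the stretch were compared within 500 kb on either side, a window chosen after the values of the ligands were known. It held 14 other genes, of which 9 were tested. Of these, 0 passed the threshold, against 1.27% of all genes tested, and their median log2 fold change was 0.11. In RPKM, 1 of the 9 stood apart as higher and 0 as lower, against 21.6% and 25% of all genes tested. The higher one was Ppbp, a chemokine gene, at 195 and 204 RPKM in WT against 325 and 230 RPKM in the knockout-labelled libraries (log2 fold change 0.49, adjusted p = 0.214). Mthfd2l, the nearest tested gene on the Epgn side, had a log2 fold change of 0.04 (SE 0.17), and Parm1, the nearest on the Btc side, 0.67 (SE 0.45), the largest of the 9 neighbours, at 0.107 to 0.258 RPKM with overlapping groups. The chemokine genes Cxcl1, Cxcl2, Cxcl3 and Cxcl5 overlapped between the genotypes, with log2 fold changes of 0.19, 0.07, 0.11 and 0.64.

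**Figure D2:**
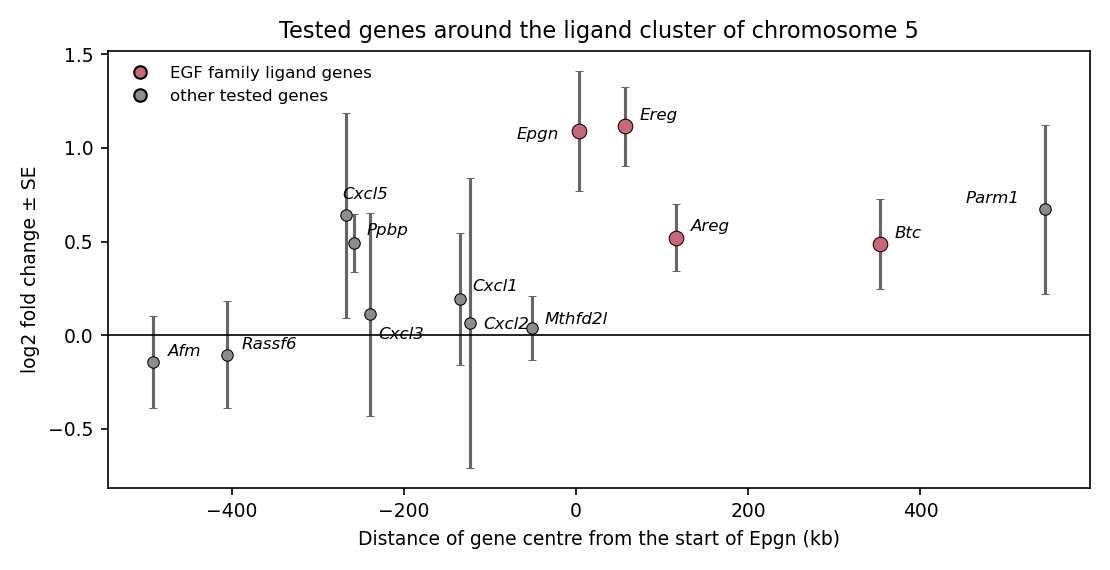
Log2 fold change ± SE of the 4 ligand genes (red) and of the 9 other tested genes (grey) within 500 kb of the ligand stretch on chromosome 5, against the distance of each gene's centre from the start of Epgn in kb. Epgn and Ereg lie at 1.09 and 1.11, Areg and Btc at 0.52 and 0.49, and the neighbours run from -0.14 to 0.67 with the widest errors for Cxcl2, Cxcl5, Cxcl3 and Parm1.

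Hbegf, the gene of the heparin-binding EGF-like growth factor, was the most abundant ligand in WT. It lies on chromosome 18 at 36504929 to 36515805 (ENSMUSG00000024486, minus strand, 6 exons). Its level was 51.5 and 59.3 RPKM in WT against 59.4 and 54.9 RPKM in the knockout-labelled libraries, and the groups overlapped. The log2 fold change was 0.06 (SE 0.11, adjusted p = 0.849), with an interval of the fold change from 0.871 to 1.25.

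Tgfa (ENSMUSG00000029999, chromosome 6 at 86195223 to 86275719, plus strand, 8 exons) encodes transforming growth factor alpha, an autocrine ligand of KCs. Its level was 14.6 and 20.4 RPKM in WT against 18.0 and 16.7 RPKM in the knockout-labelled libraries. Both of the latter fell between the WT values, and the estimate lay at no change (SE of the log2 fold change 0.16, unadjusted p = 0.999), with an interval of the fold change from 0.773 to 1.29. The interval of Ereg (1.53 to 3.06) lay wholly above those of Tgfa and Hbegf, and that of Epgn (1.26 to 3.59) wholly above that of Hbegf, but the differences between ligands were not tested.

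Errfi1 encodes MIG6, a cytoplasmic protein that binds and inhibits the EGF receptor kinase and is itself induced by the pathway. The gene lies on chromosome 4 at 150853919 to 150868892 (ENSMUSG00000028967, plus strand, 6 exons). Its level was 10.4 and 9.80 RPKM in WT against 12.9 and 12.7 RPKM in the knockout-labelled libraries. The replicates lay close together and the groups did not overlap. The log2 fold change was 0.36 (SE 0.11, unadjusted p = 0.011, adjusted p = 0.181), with an interval of the fold change from 1.08 to 1.53, and over the 14 alternative analyses it stayed between 0.31 and 0.42 without passing the threshold.

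**Figure D3:**
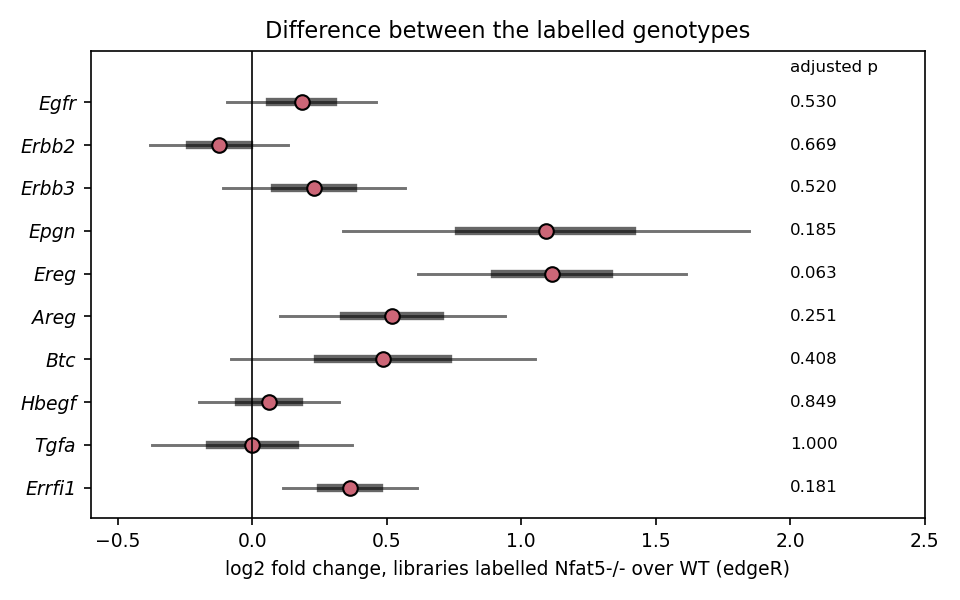
Log2 fold change of each gene of the group between knockout-labelled libraries and WT from edgeR (points), with the SE as a thick bar, the 95% interval as a thin line and the adjusted p at the right. The intervals of Epgn, Ereg, Areg and Errfi1 lie above 0 and those of the other 6 genes cross it, and the smallest adjusted p is 0.063 for Ereg.

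The order of the ligand levels per exon length changed at the top. In WT the mean level was highest for Hbegf (55.4 ± 5.56 RPKM, SD, n = 2), which stood above Epgn (32.6 ± 17.9 RPKM), and Epgn overlapped with Tgfa (17.5 ± 4.12 RPKM). Erbb2, Egfr, Areg and Errfi1 followed between 10.1 and 11.1 RPKM, where no gene stood apart from its neighbour, and Erbb3, Ereg and Btc came last at 5.32, 3.67 and 0.942 RPKM. In the knockout-labelled libraries Epgn was first (68.5 ± 0.662 RPKM), apart from Hbegf (57.1 ± 3.21 RPKM). Ereg stood above Erbb3 there (7.77 and 6.14 RPKM), and Areg (14.4 RPKM) overlapped with Errfi1 (12.8 RPKM).

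Added over the 6 ligands, the RNA level was 126 and 115 RPKM in WT against 172 and 161 RPKM in the knockout-labelled libraries. The sum was higher in both knockout-labelled libraries and its mean was 1.38 times that of WT. The 4 genes of chromosome 5 made up 47.4% and 30.7% of it in WT against 55.1% and 55.4% in the knockout-labelled libraries. Hbegf and Tgfa together were at 66.1 and 79.7 RPKM in WT against 77.4 and 71.6 RPKM in the knockout-labelled libraries, a ratio of the means of 1.02.

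Epgn took a larger share of this sum in both knockout-labelled libraries, and Hbegf a smaller one. The share of Epgn was 36.0% and 17.3% in WT against 40.02% and 42.4% in the knockout-labelled libraries, and the share of Hbegf was 40.9% and 51.6% in WT against 34.5% and 34.2%. The ratio of Epgn to Hbegf was 0.879 and 0.336 in WT against 1.16 and 1.24 in the knockout-labelled libraries, so that Epgn exceeded Hbegf only in the latter. The ligand sum was 11.3 and 12 times the level of Egfr in WT against 15.7 and 13 times in the knockout-labelled libraries.

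**Figure D4:**
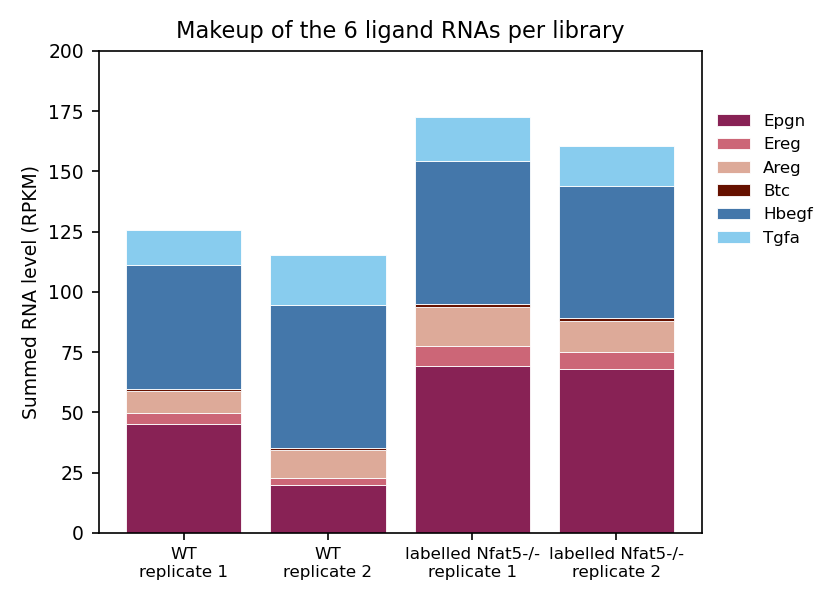
Summed RNA level of the 6 ligands in each library (RPKM, stacked bars from 0), with Epgn, Ereg, Areg and Btc of chromosome 5 at the bottom in red shades and Hbegf and Tgfa above in blue. The sum is 126 and 115 RPKM in WT against 172 and 161 RPKM in the knockout-labelled libraries, and Epgn is smallest in WT replicate 2.

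The counts hold further readouts of the same libraries: reads that cross an exon junction, which come from spliced RNA, and reads in introns, which come mostly from unspliced RNA. They share their source with the gene totals and are a description of where the reads lie. Epgn had 182 and 123 junction reads in WT against 411 and 326 in the knockout-labelled libraries, a ratio of 2.07 relative to all gene reads. Ereg had 19 and 18 against 78 and 31, a ratio of 2.49, and Areg 48 and 79 against 117 and 79, a ratio of 1.39. The knockout-labelled libraries stood apart as higher in junction reads in these 3 ligands, in Errfi1 (ratio 1.33) and in Egfr, which had 514 and 573 against 826 and 764 (ratio 1.31) and had overlapped in RPKM. These are 5 of the 10 genes, against 21.1% of all genes tested. Erbb2 stood apart as lower, with 319 and 364 against 371 and 310 (ratio 0.888), which makes 1 of 10 against 18.1% of all genes. The other 4 genes overlapped, among them Btc, with 5 and 7 against 12 and 5 junction reads.

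Intron reads numbered at most 40 per library in every gene of the group other than Egfr. Epgn had 25 and 17 in WT against 40 and 35 in the knockout-labelled libraries (ratio 1.54), Areg 1 and 2 against 8 and 6, and Ereg 1 and 1 against 6 and 3. In all 3 the knockout-labelled libraries stood apart as higher, as they did in Errfi1, with 7 and 6 against 12 and 9 (ratio 1.4), and in Erbb3, with 3 and 4 against 5 and 4. Relative to all gene reads, these are 5 of the 10 genes, against 9.13% of all genes tested. Areg and Ereg, and Btc below, had WT counts under 3 reads, the smallest level taken as visible. Erbb3 stood apart only after scaling to all gene reads, since its raw counts met at 4. The intron share of the reads was 1.97% and 1.94% in WT against 1.85% and 1.79% in the knockout-labelled libraries. In 4 of the 10 genes the knockout-labelled libraries stood apart as lower, against 32.4% of all genes. Hbegf had 12 and 21 intron reads against 16 and 11 (ratio 0.743), and Tgfa 12 and 18 against 11 and 13 (ratio 0.741). Erbb2 had 5 and 4 against 4 and 0, and Btc, which was higher in RPKM, 1 and 1 against 1 and 0. Egfr, with 148 and 252 against 262 and 204, overlapped. The differences in intron reads were not tested.

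Sequence before the start sites was examined because ligands of this family and Errfi1 are known as inducible genes. RefSeq windows (GRCm38.p6) of 250 bases before to 50 bases after a start were given for 7 of the 10 genes, in 8 windows, and the reference strain differs from the 129/sv mice. The letters searched on both strands were TGACGTCA (the cyclic AMP response element, CRE), TATAAA (the TATA box), TGANTCA (the AP-1 element), and the NFAT5 tonicity element and the CArG box by name. None of these motifs overlapped another in the windows shown. CRE and TATA letters were present together upstream of Areg and of 1 start of Errfi1, the genes with the stretches below. Of all 32851 RefSeq windows, 1.79% held the CRE letters, 13.6% the TATA letters and 0.170% both. The 100 bases before each start are shown 5′ to 3′ on the plus strand with the matches in capitals. The Areg stretch is chr5:91139499-91139598, upstream of the gene, and the Errfi1 stretch is chr4:150854970-150855069, before the second annotated start and inside the first intron of the longer transcript. Neither overlaps an annotated exon.
Areg: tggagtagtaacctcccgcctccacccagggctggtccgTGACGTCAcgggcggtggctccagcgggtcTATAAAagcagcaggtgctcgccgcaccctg
Errfi1: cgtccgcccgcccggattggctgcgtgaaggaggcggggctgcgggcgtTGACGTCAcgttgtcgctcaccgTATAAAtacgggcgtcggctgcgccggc

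The CRE letters begin 61 bases before the start in Areg and 51 bases before it in Errfi1, and the TATA letters 31 and 28 bases before it. The Epgn window held TATA letters 86 bases before its RefSeq start. The windows of Btc, Tgfa, Egfr, Erbb2 and the first start of Errfi1 held none of the motifs searched, and no window of the group held the AP-1, tonicity or CArG letters. The AP-1 letters were in 7.81% of all windows, the tonicity element in 4.96% and the CArG box in 1.63%. A match in these letters is a description of the sequence, and binding was not measured.

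The rest of the pathway was examined with a list of 63 genes, of which 59 were tested. Of these, 1 rose (Fos) and 0 fell at the adjusted threshold, against 0.943% and 0.325% of all genes, and the median log2 fold change was -0.01. Among the other ErbB receptors and ligands, 2 of 6 were tested. Nrg1, the gene of the ErbB3 and ErbB4 ligand neuregulin 1, was at 18.4 and 13.8 RPKM in WT against 13.3 and 12.4 RPKM in the knockout-labelled libraries (log2 fold change -0.30, adjusted p = 0.405). Erbb4, a receptor of Ereg and Btc, was listed at 0 RPKM in 3 libraries and at 0.004 RPKM in the other, and its 5 to 17 gene reads lay mostly in introns (log2 fold change -0.87, adjusted p = 0.530). Egf itself had at most 3 reads in any library and was not tested.

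Of the sheddases that free the ligands, 0 of 7 tested genes passed the threshold, against 1.27% of all genes. At an unadjusted p under 0.05, 0 were higher and 0 lower, against 8.17% and 6.47% of all genes. With 7 genes, these shares leave few to be seen. Their log2 fold changes ran from -0.06 to 0.17, with adjusted p-values of 0.709 or more. Adam17, the main sheddase of several of these ligands, overlapped between the genotypes (log2 fold change -0.04, adjusted p = 0.902). The largest differences were 0.17 in Adam15 and 0.11 in Rhbdf2, a partner of Adam17.

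Negative regulators of the pathway gave 0 calls in 16 tested genes, and their median log2 fold change was -0.04. Spry2, an inhibitor induced by MAP kinase signalling, was at 5.65 and 6.86 RPKM in WT against 9.11 and 7.96 RPKM in the knockout-labelled libraries (log2 fold change 0.47, adjusted p = 0.255). Dusp4, a MAP kinase phosphatase, had the largest difference (0.56, SE 0.39, adjusted p = 0.569) but overlapped, at 1.80 and 4.38 against 5.5 and 3.50 RPKM. At an unadjusted p under 0.05, Spry2 was higher and Socs3 lower, 1 of 16 each way against 8.17% and 6.47% of all genes. In the RPKM values 1 of the 16 genes stood apart as higher and 5 as lower, against 21.6% and 25% of all genes tested.

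Adaptors and kinases gave 0 calls in 19 tested genes, with a median of -0.01, and at an unadjusted p under 0.05 Stat3 was higher and Src lower, 1 of 19 each way against 8.17% and 6.47% of all genes. In RPKM 3 of the 19 stood apart as higher and 5 as lower, against 21.6% and 25% of all genes. Stat3, a transcription factor activated by the receptors, was at 11.5 and 12.7 RPKM in WT against 14.6 and 16.2 RPKM in the knockout-labelled libraries (0.37, adjusted p = 0.202). Src, a kinase that acts beside Egfr, was lower, at 88.2 and 87.9 against 76.1 and 72.2 RPKM (-0.23, adjusted p = 0.325).

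Of 15 early response genes tested, 1 passed the threshold as higher, against 0.943% of all genes, and the median log2 fold change was 0.02. At an unadjusted p under 0.05, 4 of the 15 were higher (Fos, Egr1, Egr3 and Fosl1) and 2 were lower (Atf3 and Etv5), against 8.17% and 6.47% of all genes, and the list as a whole was not tested. Fos, a subunit of AP-1, was at 10.7 and 10.2 RPKM in WT against 17.1 and 17.8 RPKM in the knockout-labelled libraries (log2 fold change 0.76, SE 0.11, adjusted p = 0.032). The call of Fos was lost with the replicate block, where Egr1 alone passed, and without either knockout-labelled library. Egr1, a zinc finger factor induced by MAP kinase signalling, was at 12.4 and 18.4 RPKM in WT against 29.4 and 35.4 RPKM in the knockout-labelled libraries (1.09, SE 0.20, adjusted p = 0.053), and was picked by the study from these libraries. Its relative Egr3 was at 0.381 and 0.440 RPKM in WT against 0.961 and 0.970 RPKM (1.26, SE 0.26, adjusted p = 0.078). Jun and Junb, the partners of Fos, had log2 fold changes of 0.17 and 0.10, and Myc -0.14.

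**Figure D5:**
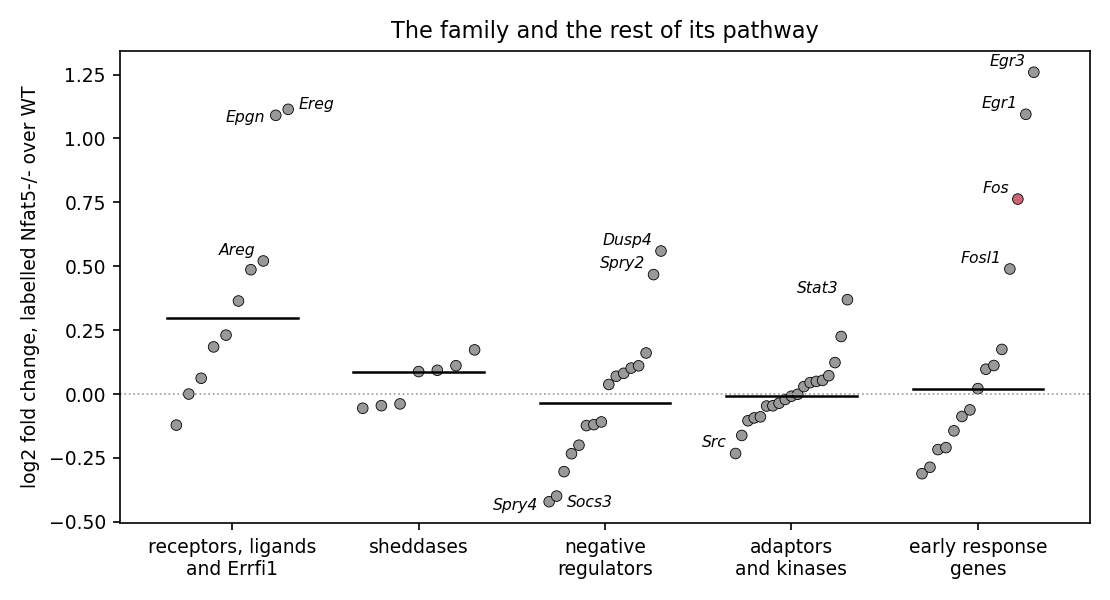
Log2 fold change of each tested gene (points) in the 10-gene group and in 4 further lists of the pathway, sorted within each list, with a line at the median and a red point for the gene past the threshold. The other ErbB receptors and ligands, with 2 tested genes, are not drawn. The medians lie at 0.30, 0.09, -0.04, -0.01 and 0.02, and Fos is the gene past the threshold while Egr1 and Egr3 lie higher in fold change.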

How the data were processed

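The authors trimmed the reads and aligned them to the mouse genome GRCm38 with the CLC Genomics Workbench at default settings. They deposited, for each gene and library, raw read counts (whole gene, exons, introns, junctions, uniquely placed reads) and RPKM values. RPKM was read with its decimal commas and used for levels, not for the main test. Counting is not stated to use strand.

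Total gene counts of the 4 libraries were fitted with edgeR 4.0.16 (R 4.3.3), using filterByExpr, TMM factors, the quasi-likelihood test and genotype as sole term. Two-sided p-values were given a Benjamini-Hochberg adjustment over 12614 genes (threshold 0.05). The SE is the log2 fold change divided by the square root of F, and intervals are 95%. Groups came from the sample titles. Alternatives used DESeq2 1.42.0, limma 3.58.1 (RPKM of at least 1 in 2 libraries), other scalings and filters, other read classes, a replicate block and leaving out each library. The procedure was tested on simulated counts.

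Totals ranged from 16219445 to 23494436 reads, so 3 reads, the smallest level taken as visible, were 0.128 to 0.185 CPM. Without molecular identifiers this covers counting error only. The 10 genes, the further lists and the tests were chosen with earlier results of these data known. Named genes were the 10 genes, Nfat5, every gene of a further list past the threshold, the 2 with the largest change in each list and the most abundant marker of each cell type. Any other gene was named with its values in view.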

Additional observations from a re-analysis of the deposited data

How the results depend on the processing

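Of the 140 values that the 14 alternatives gave for the 10 genes, 119 kept their direction and their side of the threshold, 11 newly passed it and 10 changed sign. The cause of these changes was not tested. Genes called numbered 160, but 427 with DESeq2, 1137 with no filter on low counts, where 63.6% rather than 74.4% of calls were higher, and 16 to 478 with 1 library left out (without the WT replicates 268 and 478, without the knockout-labelled replicates 31 and 16). Of the 10 genes, 0 were called, but 1 (Ereg) with DESeq2, library totals, uniquely placed exon reads or the replicate block, 3 (Areg, Epgn, Ereg) with no filter, and 0 to 2 with 1 library left out. Of the other pathway genes, 1 (Fos) was called, 2 (Egr1, Fos) with DESeq2, RLE factors, at least 10 reads in every library, exon reads, library totals, limma on log2(RPKM + 1) or uniquely placed exon reads, 4 with no filter, and 0 to 3 with 1 library left out. The log2 fold change of Tgfa, near 0, turned positive with DESeq2 (0.0060), RLE factors (0.0054), at least 10 reads (0.0038), limma (0.0045 and 0.0034), no filter (0.0016) and the replicate block (0.019), and ran from -0.21 to 0.26 with 1 library left out. That of Hbegf was -0.028 without WT replicate 1, the lowest of a range up to 0.17. The replicate block gave 132 calls in all, but same-numbered libraries share only a number (correlation of their deviations -0.065). Where 1 library stood for a genotype, it was assumed to vary like the other genotype. At 43 to 96 reads, Btc was the gene most limited by depth.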
